A study of Mus musculus with 12 samples.

Results

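A set of 73 genes stood at least 2-fold higher in MIWI immunoprecipitates than in the starting RNA in all 3 genotypes, the one without MIWI included. They were chosen from 20345 Ensembl genes measured in mouse samples labelled as late spermatocytes. Of these, 12246 had at least 1 RPKM (read number scaled to 1000000 reads and to a kilobase of gene) in at least 2 of 6 columns. From these were kept the genes whose immunoprecipitate (IP) exceeded its own input by at least 1 on the log2(RPKM + 1) scale in Miwi ADH/-, Miwi -/- and Miwi +/- alike, which were 0.596% of the genes that passed. The IP-to-input differences thus chose the members and are given below as a description, with no test.

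The groups were MIWI IP and input RNA of Miwi ADH/-, Miwi -/- and Miwi +/- mice, depleted of ribosomal RNA, with 2 samples per group in the labels (12 in all). Each genotype carries a null allele, over the ADH allele, over a further null allele or over the intact allele, so the Miwi +/- reference is itself heterozygous. Age is not given in the labels, and RNA came from testes or from sorted cells without a statement of which sample came from which. The deposited table holds 1 column per group, so no replicate spread could be computed, no difference below carries a p-value, and intervals cover the counting error of reads only.

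MIWI is a germ cell Argonaute of the PIWI clade, loaded with pachytene piRNAs in spermatocytes and round spermatids, and the ADH mutation is known to disable its slicing of target RNAs. In an immunoprecipitation, RNA is recovered through the protein that the antibody binds and also through the antibody or the beads themselves. The IP from cells without the protein serves as the control for that second part. RNA recovered there can also be recovered through MIWI where the protein is present, and the source of the members' recovery was not tested.

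The table gives Ensembl IDs alone. Of the 73 IDs, 0 matched the reference gene table used here and 0 the promoter table. For this reason RNA classes (repeat-like, noncoding, pseudogene), gene functions and sequences are not reported here, the label of the cells was not checked against marker genes, and the targeted gene was not checked. No more than 2 IDs that are higher and 2 that are lower are named per comparison. What could be described for the set is its levels, read numbers, gene lengths and behaviour across genotypes.

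The members' IP levels had medians of like size in the 3 genotypes, and these lay above the medians of the inputs. In Miwi ADH/- the members ran from 1.25 to 1640 RPKM in the IP, with a median of 38.8, against 0 to 491 RPKM in the input, with a median of 10.03. In Miwi -/- they ran from 1.06 to 2298 RPKM in the IP, with a median of 48.9, against 0 to 588 in the input, with a median of 10.9. In Miwi +/- the IP range was 1.88 to 1675 RPKM with a median of 39.7, against 0 to 666 and a median of 12.3 in the input. The ranges of IP and input overlapped over the set as a whole. Within a gene they mostly did not: for 68 of the 73, all 3 IP values lay above all 3 input values. This held for 300 genes, or 2.45%, of those that passed the filter, and since the rule used these differences nothing is read from the comparison.

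**Figure D1:**
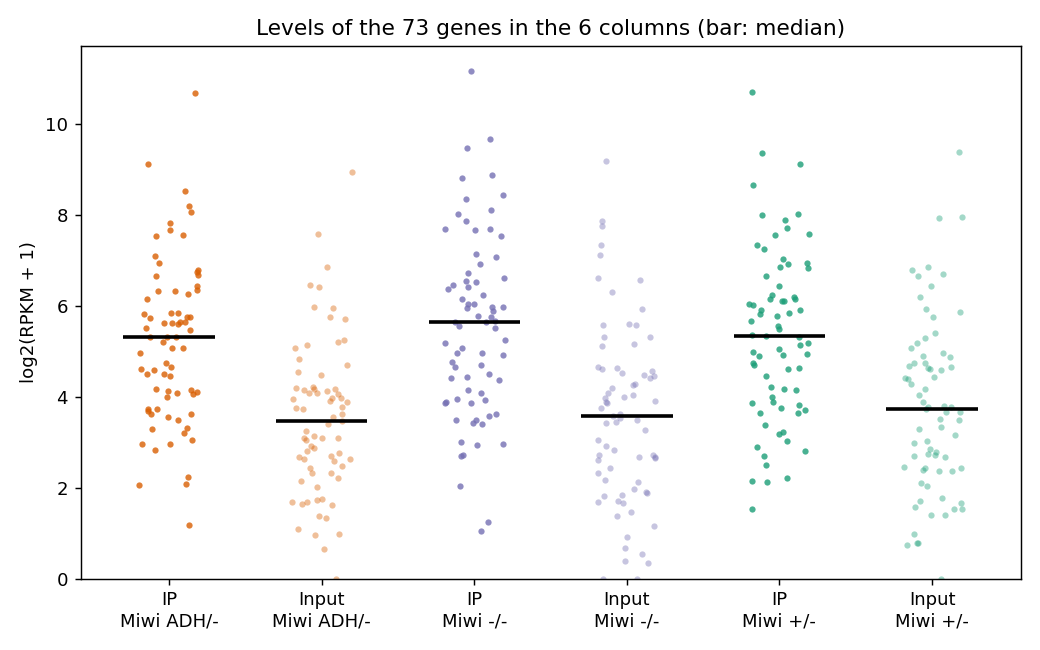
Level of each of the 73 genes, as log2(RPKM + 1), in the IP and input column of Miwi ADH/-, Miwi -/- and Miwi +/-. Each point is 1 gene and the black bar is the median, which on the RPKM scale was 38.8, 48.9 and 39.7 for the IPs, against 10.03, 10.9 and 12.3 for the inputs.

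The median member stood 1.59 higher in the IP on the log2(RPKM + 1) scale in Miwi ADH/-, with a range of 1.03 to 2.75. In Miwi -/- the median was 1.74 (1.04 to 4.69), and in Miwi +/- it was 1.41 (1.02 to 3.26). Over all genes that passed the filter the medians were negative, at -0.41, -1.37 and -0.77 in the same order of genotypes. At least 2-fold higher in the IP were 4.83% of all such genes in Miwi ADH/-, 3.67% in Miwi -/- and 4.24% in Miwi +/-. The 73 made up 12.4% of the 591 IP-enriched genes of Miwi ADH/-, 16.3% of the 449 of Miwi -/- and 14.1% of the 519 of Miwi +/-. At 4-fold or more stood 13 members in Miwi ADH/-, 25 in Miwi -/- and 13 in Miwi +/-, with 5 in all 3 genotypes. The rule used these differences and the 4-fold share of all genes is not given, so nothing is read from the counts.

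A pair of genes led the set when members were ordered by the smallest of their 3 differences. ENSMUSG00000085210 had 21.2 RPKM in the IP of Miwi ADH/-, 70.7 in that of Miwi -/- and 26.0 in that of Miwi +/-, against 2.30, 1.78 and 2.43 RPKM in their inputs. Its IP-to-input ratio was 9.20 in Miwi ADH/- (95% counting interval 6.71 to 12.9), 39.7 in Miwi -/- (29.1 to 55.7) and 10.7 in Miwi +/- (8.17 to 14.3). The inputs of this gene were alike, and its IP column without MIWI stood above both others.

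ENSMUSG00000042133 was more abundant and had the same order. It had 107 RPKM in the Miwi ADH/- IP, 275 in the Miwi -/- IP and 112 in the Miwi +/- IP, against 16.5, 13.8 and 18.5 RPKM in the inputs. The ratios were 6.49 (5.46 to 7.77) in Miwi ADH/-, 19.9 (16.8 to 23.7) in Miwi -/- and 6.08 (5.24 to 7.08) in Miwi +/-. The intervals of Miwi ADH/- and Miwi +/- overlapped for both genes, and the interval of Miwi -/- lay clear of them.

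Most members rested on many reads. The median member had 809 reads in the Miwi ADH/- IP, 405 in the Miwi -/- IP and 497 in the Miwi +/- IP, against 114, 189 and 220 reads in the inputs. At least 20 reads in every column were found for 62 of the 73. The counting interval of the IP-to-input ratio lay above 1 in all 3 genotypes for 71 members, and above 2 in all 3 for 46. Among all genes that passed the filter, 275, or 2.25%, had an interval above 1 in all 3 genotypes. The rule chose the members on the same differences, so nothing is read from this comparison.

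The exceptions were shallow genes. All 73 had at least 1 RPKM in every IP, as the rule requires, and 9 were under 1 RPKM in at least 1 input, of which 3 had 0 reads in an input. One of these 3 had 2 reads in the Miwi -/- IP and 5 in the Miwi +/- IP, against 0 in both inputs, and the counting intervals of its ratios began at 0.320 and 1.17. Another had 8 reads in the Miwi ADH/- IP against 0 in the input, with an interval that began at 0.885. The third had 4 reads in the Miwi -/- IP against 0 in the input, with an interval that began at 1.12. No fold is given for them. Membership of these 3 genes thus rests on fewer than 10 IP reads in at least 1 genotype.

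The threshold cut through a continuous range of values. The 3 members nearest to it had smallest differences of 1.02, 1.03 and 1.03, and the 3 genes just outside had 0.99, 0.97 and 0.97. Between 1.0 and 1.1 lay 13 members, and between 0.9 and 1.0 lay 18 genes that were left out.

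Summed over the set, the members took a larger share of the reads in the IPs than in the inputs, as the rule requires. The share was largest in the IP without MIWI, whose values the rule also used, so it is given as a description. Of the reads in listed genes, the 73 held 9.61% in the Miwi -/- IP (counting interval 9.55% to 9.68%), against 0.858% in its input. They held 3.53% (3.51% to 3.55%) in the Miwi ADH/- IP against 0.753% in its input, and 4.66% (4.63% to 4.70%) in the Miwi +/- IP against 0.941% in its input. Listed genes as a whole took 35.0%, 18.3% and 29.3% of the reads of the IPs from Miwi ADH/-, Miwi -/- and Miwi +/-, against 47.9%, 53.7% and 52.3% for the inputs. Per total reads rather than per listed reads, the summed IP-to-input ratios were therefore closer together, at 3.43 (3.38 to 3.48), 3.81 (3.76 to 3.86) and 2.78 (2.74 to 2.81) in that order. In bulk RNA, more molecules of a gene in an IP and fewer of the other RNAs cannot be told apart.

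A single gene carried a large part of the set's reads in each column, from 20.4% in the Miwi +/- IP to 22.7% in the Miwi ADH/- input. Without it the shares were 2.75% in the Miwi ADH/- IP, 7.52% in the Miwi -/- IP and 3.71% in the Miwi +/- IP, against 0.582%, 0.676% and 0.729% in the inputs. The order of the IPs was the same without that gene. The 10 most-read members held 55.6% to 56.6% of the set's reads across IPs, against 58.0% to 62.9% across inputs.

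**Figure D2:**
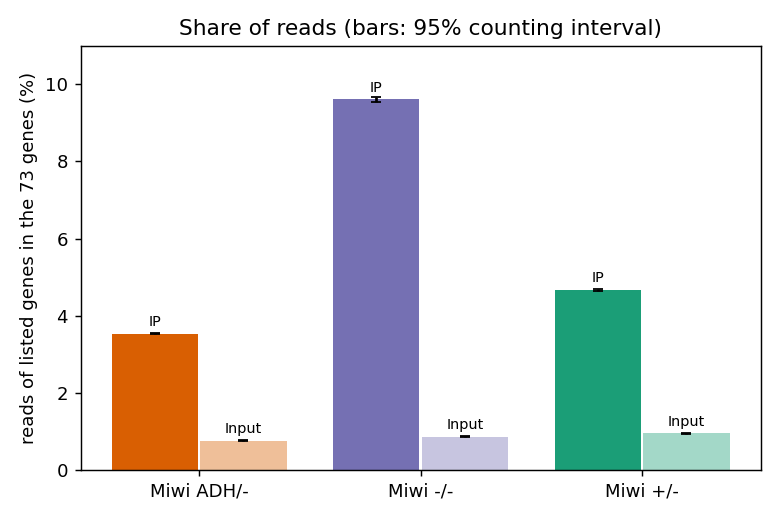
Percentage of the reads of listed genes that fell in the 73 genes, for the IP (dark) and input (light) of each genotype, with 95% counting intervals. The Miwi -/- IP stood highest at 9.61%, against 3.53% and 4.66% in the IPs of Miwi ADH/- and Miwi +/-, and all inputs lay under 1%. The rule chose genes higher in each IP than in its input.

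Recovery without MIWI was not smaller than with it for most members. The IP-minus-input difference was larger in Miwi -/- than in Miwi +/- for 57 of the 73, or 78.1%, with a median gap of 0.27 on the log2 scale, and by at least 2-fold for 8. It was at least 2-fold smaller for 1. Over all genes that passed the filter it was larger in Miwi -/- for 28.3%, and the gap had a median of -0.67, with 9.56% at least 2-fold higher and 39.3% at least 2-fold lower in Miwi -/-. The rule required a high value in both genotypes, so the members' gap is given as a description.

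The scale set the size of this gap. The listed genes took the smallest share of reads in the Miwi -/- IP, which is also the shallowest column, with 39.4% to 76.0% of the read total of any other. Measured from the median of all genes in each genotype, the difference was larger in Miwi -/- for 69 members, against 47.7% of all genes, and at least 2-fold larger for 29. With median-of-ratios scaling these counts were 72 and 58, against 47.5% of all genes with a larger difference. With equal totals of listed reads they were 69 and 36, against 40.9%. At least 2-fold smaller in Miwi -/- were 0 members on each of these 3 scales. The 2-fold shares of all genes are not given on these scales, so nothing is read from the 2-fold counts. The rule required a high value in both genotypes on the deposited scale, and each rescaling raises Miwi -/- against Miwi +/-. Nothing is therefore read from the counts of larger differences beside all genes either. All genes moved too: their median gap was -0.06, -0.08 and -0.28 on these scales in that order, against -0.67 on the deposited scale.

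ENSMUSG00000028333 had the widest gap in that direction. It stood at 207 RPKM in the Miwi -/- IP and 56.4 in the Miwi +/- IP, against 18.1 and 19.9 RPKM in their inputs. Its IP-to-input ratio was 11.4 (9.81 to 13.4) in Miwi -/- and 2.83 (2.41 to 3.33) in Miwi +/-. In Miwi ADH/- it lay between, at 6.13 (5.06 to 7.50), from 85.7 RPKM in the IP against 14.0 in the input.

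ENSMUSG00000080860 went the other way and was the 1 member at least 2-fold lower in Miwi -/- on the deposited scale, where the 3 rescalings above gave 0 such members and a pseudocount of 0.1 gave 1. It had 48.9 RPKM in the Miwi -/- IP and 130 in the Miwi +/- IP, against 13.7 and 12.6 RPKM in their inputs. The ratio was 3.57 (2.43 to 5.35) in Miwi -/-, against 10.3 (7.35 to 14.7) in Miwi +/-, and it was 6.50 (3.96 to 11.4) in Miwi ADH/-. The intervals of Miwi -/- and Miwi +/- did not overlap, and that of Miwi ADH/- overlapped both. At 412 bases this gene was the shortest of the set. Next came ENSMUSG00000021271, with ratios of 4.47 (2.75 to 7.48) in Miwi -/- and 8.46 (5.26 to 14.3) in Miwi +/-, whose intervals overlapped.

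Against the catalytic mutant, the difference was larger in Miwi -/- than in Miwi ADH/- for 42 of the 73 (57.5%, against 20.4% of all genes), at least 2-fold larger for 10 and at least 2-fold smaller for 0, with a median gap of 0.16. Over all genes the median gap was -1.06, with 7.30% at least 2-fold higher and 51.9% at least 2-fold lower. Relative to the median of all genes the difference was larger in Miwi -/- for 73 members, against 46.9% of all genes, and at least 2-fold larger for 42. The 2-fold share of all genes is not given on that scale. The rule required a high value in both genotypes. That scale also raises every gene in Miwi -/- against Miwi ADH/-, as the medians of all genes were -1.37 and -0.41. Nothing is therefore read from the members' counts beside all genes.

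Between Miwi ADH/- and Miwi +/-, 1 member was at least 2-fold more enriched in the catalytic mutant and 2 were less enriched. The share among all genes was 20.5% more and 7.56% less enriched. On the deposited scale 52 members (71.2%) had the larger difference in Miwi ADH/-, near the 67.9% of all genes, and their median gap of 0.14 was smaller than that of all genes, 0.38. Relative to the median of all genes 20 members did, against 51.0% of all genes, and with median-of-ratios scaling 17, against 50.9%, so the direction of this gap depends on the scale. These 3 comparisons share columns, and each is given for its own values only. The rule required a difference of at least 1 in every genotype, so nothing is read from the members' counts and gaps beside those of all genes.

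Taking the 3 genotypes together, the largest of a member's 3 differences was in Miwi ADH/- for 25 genes, in Miwi -/- for 41 and in Miwi +/- for 7. The smallest was in Miwi ADH/- for 15, in Miwi -/- for 15 and in Miwi +/- for 43. The rule used these differences and no share of all genes is given beside the counts, so nothing is read from them. The 3 differences of a member lay within 0.5 of each other for 33 genes and within 1 for 61, and the median span was 0.59. Across the 73 genes, which are not independent and share library depth and length, the differences correlated between Miwi -/- and Miwi +/- (Pearson's r 0.60, Spearman's rho 0.60). The values were 0.60 and 0.44 between Miwi ADH/- and Miwi +/-, and 0.48 and 0.40 between Miwi -/- and Miwi ADH/-. The rule kept only differences of at least 1 and no correlation over all genes is given, so nothing is read from these values.

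**Figure D3:**
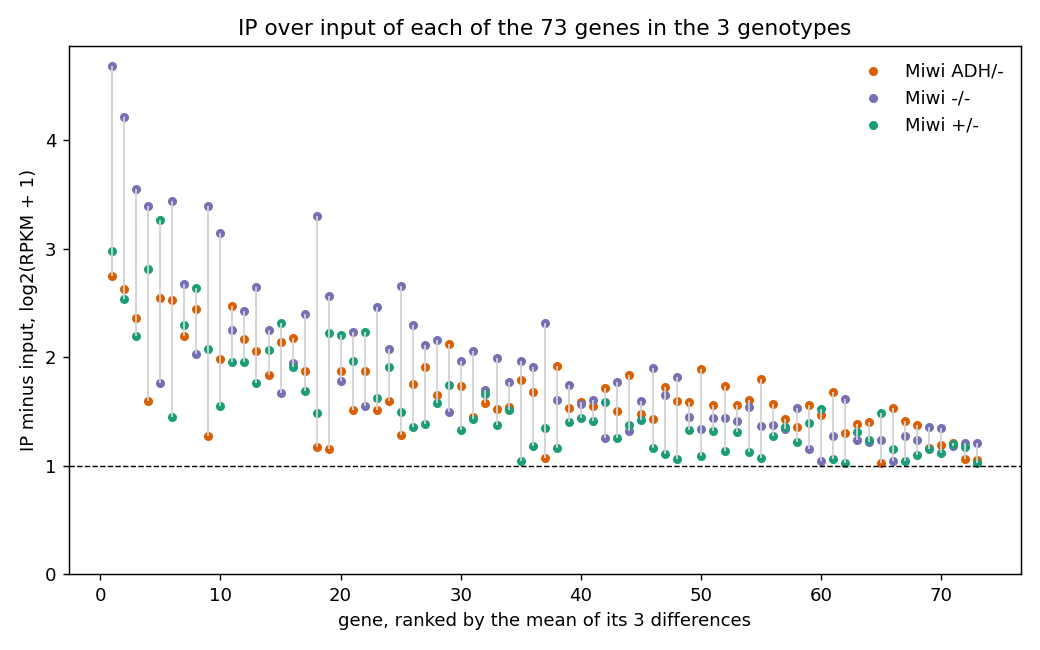
IP minus input on the log2(RPKM + 1) scale for each of the 73 genes in Miwi ADH/-, Miwi -/- and Miwi +/-, ordered by the mean of the 3 values, with a grey line over their span and a dashed line at the threshold of 1. The Miwi -/- value is the highest of the 3 for 41 genes, and it reaches 4.69. The rule kept only values of at least 1, and the count has no share of all genes beside it.

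The input levels of most members differed little between genotypes, a contrast that the rule did not name although it used the same columns. Between Miwi ADH/- and Miwi +/- inputs, 2 members were at least 2-fold higher and 2 at least 2-fold lower in the mutant, against 7.80% and 7.42% of all genes. Between Miwi -/- and Miwi +/- inputs, 0 were higher and 5 were lower, against 4.47% and 10.6% of all genes. Between Miwi -/- and Miwi ADH/- inputs, 2 were higher and 8 lower, against 6.54% and 12.6%. The median member was 0.41 lower in the Miwi ADH/- input and 0.14 lower in the Miwi -/- input than in the Miwi +/- input, against medians of -0.16 and -0.02 over all genes.

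Members whose input differed between genotypes still exceeded it in each IP, as the rule requires. ENSMUSG00000039555 had 79.5 RPKM in the Miwi ADH/- IP, 6.79 in the Miwi -/- IP and 70.6 in the Miwi +/- IP, against 13.8, 0.901 (from 7 reads) and 10.5 RPKM in their inputs. The level was thus low in both columns of Miwi -/-, and the intervals of its IP-to-input ratios overlapped, at 5.76 (4.59 to 7.30) in Miwi ADH/-, 7.54 (3.26 to 20.3) in Miwi -/- and 6.73 (5.34 to 8.58) in Miwi +/-. ENSMUSG00000074224 was higher in the Miwi ADH/- input, at 14.8 RPKM, against 5.68 in the Miwi +/- input, and its IP levels were 80.3 and 29.6 RPKM in these genotypes. Its ratios were 5.42 (4.92 to 5.98) in Miwi ADH/- and 5.21 (4.51 to 6.04) in Miwi +/-, with 13.3 (11.7 to 15.3) in Miwi -/-.

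Among the IP columns alone, the Miwi -/- IP was the highest of the 3 IPs for 47 members, that of Miwi ADH/- for 11 and that of Miwi +/- for 15. The rule used these columns and no share of all genes is given beside the counts, so nothing is read from them. In RPKM, 8 members were at least 2-fold higher and 5 at least 2-fold lower in the Miwi -/- IP than in the Miwi +/- IP, against 5.37% and 42.1% of all genes. With median-of-ratios scaling, which raises the whole Miwi -/- IP, 53 were higher and 1 was lower, and the shares of all genes are not given. Against the Miwi ADH/- IP, 12 were higher and 5 lower in Miwi -/-, where 4.93% and 51.8% of all genes were. Between the Miwi ADH/- and Miwi +/- IPs, 3 members were higher and 6 lower in the mutant, against 18.0% and 7.48% of all genes.

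Gene length, which the rule did not use, followed from the steps of the RPKM values up to a common factor. A gene whose reads share a divisor in all columns comes out too short, and genes with few reads are more open to this. The members ran from 412 to 7838 bases, with a median of 1923, against a median of 1615 bases over the other 12173 genes that passed the filter. None (0) was under 300 bases, the length of most small noncoding RNAs, where 346 (2.84%) of the other genes lay. There were 7 members (9.59%) of 300 to under 1000 bases, against 22.4% of the others, 31 (42.5%) of 1000 to under 2000 bases against 37.1%, and 28 (38.4%) of 2000 to under 4000 bases against 29.4%. The remaining 7 (9.59%) had 4000 bases or more, against 8.26% of the others. The part of read depth in these length differences was not tested.

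By mean input level, 2 members lay under 1 RPKM, 18 from 1 to under 5, 31 from 5 to under 20, 17 from 20 to under 100 and 5 at 100 RPKM or more. The class of 5 to under 20 RPKM held 42.5% of the members, against 31.9% of all genes. The rule used the inputs on the log2(RPKM + 1) scale, which understates low genes, so these levels are a description.

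**Figure D4:**
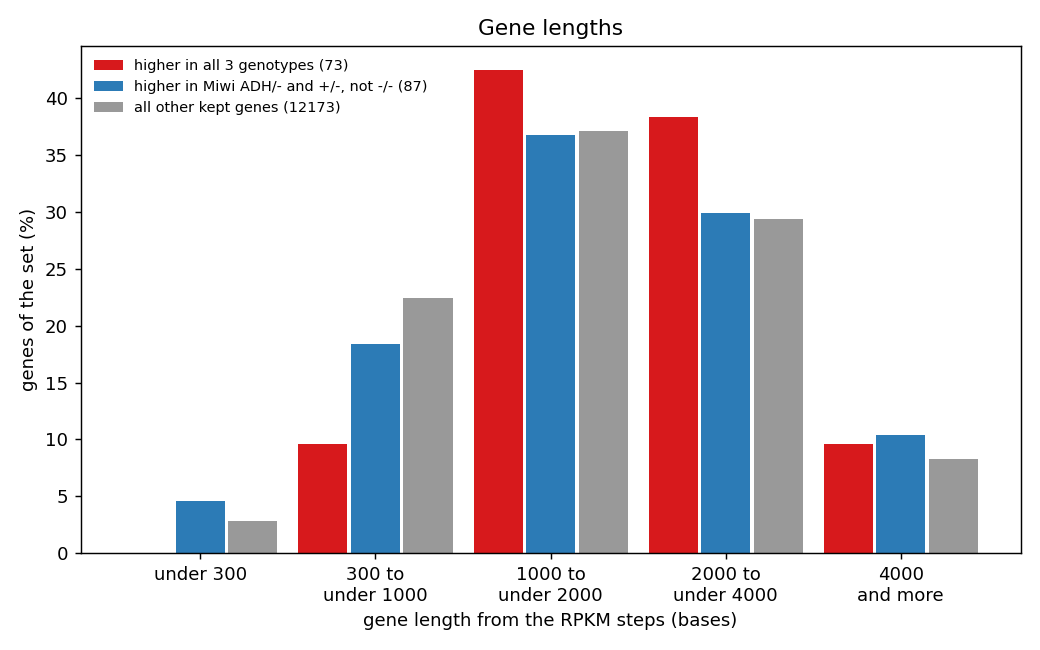
Percentage of genes in 5 length classes, for the 73 genes higher in the IP in all 3 genotypes, the 87 genes higher in Miwi ADH/- and Miwi +/- without being so in Miwi -/-, and all 12173 genes that passed the filter other than the 73. No bar stands under 300 bases for the 73 genes, against 4.60% and 2.84% in the other sets, and nothing is read from shares this small. Lengths of genes with few reads can come out too short.

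The nearest set for comparison is formed by 87 genes that were at least 2-fold higher in the IP where MIWI was present, in Miwi ADH/- and Miwi +/-, and not in Miwi -/-. Their differences, like those of the 73, were fixed by the choice of the sets and are not compared. In the input, the 73 had a median of the mean input level of 11.3 RPKM, against 3.33 RPKM for the 87 and 7.24 RPKM for all genes. At or above 5 RPKM in the mean input stood 53 of the 73 (72.6%), against 36 of the 87 (41.4%) and 59.0% of all genes. The inputs entered the choice of both sets, so these levels are given as a description. Under 1000 bases long were 7 of the 73 (9.59%), against 20 of the 87 (23.0%) and 25.2% of all genes.

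The split between the sets used the Miwi -/- IP, so the read numbers in that column are given as a description. There the median gene had 405 reads among the 73 and 17 among the 87. At most 3 reads there had 1 of the 73 and 36 of the 87. The part of depth in the split, and in the lengths of the sets, was not tested.

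**Figure D5:**
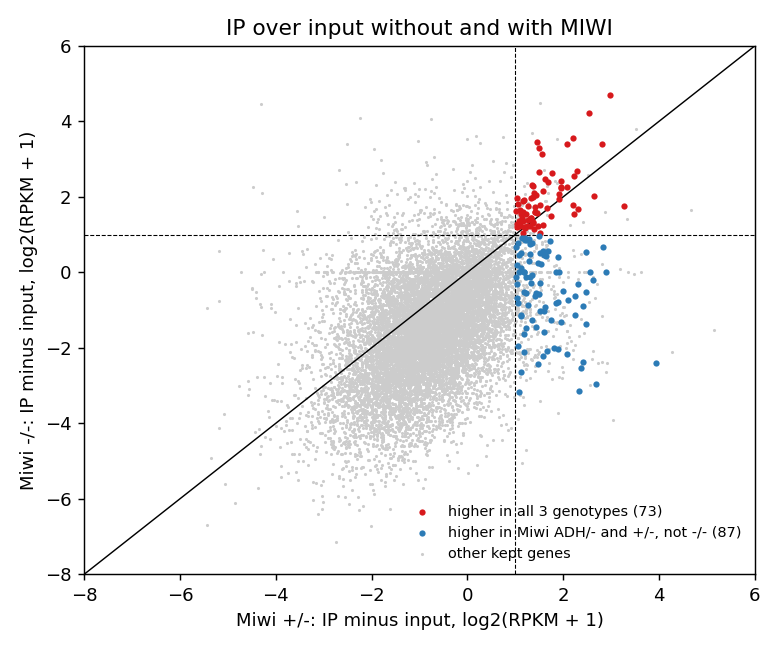
IP minus input on the log2(RPKM + 1) scale in Miwi -/- (vertical) against Miwi +/- (horizontal), for the 73 genes (red), the 87 genes (blue) and the other genes that passed the filter (grey), with dashed lines at 1 and a diagonal of equal values. Of the 73, 57 lie above the diagonal, and the median of all genes lies at -1.37 in Miwi -/- and -0.77 in Miwi +/-.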

How the data were processed

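RPKM values of 20345 Ensembl genes were used as deposited by the authors, in 6 columns, 1 per group. RPKM is stated for the Miwi +/- columns alone, per the file headers, and was assumed for the other 4, whose values step in the same proportions. The submitters' processing notes list TopHat, Bowtie and the build mm9 without versions or roles. Not given in the sources used here are the counting tool, the annotation and any pooling of the 2 samples per group.

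Differences are of log2(RPKM + 1), with a pseudocount of 1, which understates low genes. Models across replicate libraries could not be run on 1 column per group. The members and lists were chosen with earlier results of these data known. Where no table names an ID, the rule for named genes allowed at most 2 higher and 2 lower per comparison. The lists of RNA classes and cell type markers gave no values.

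Whole reads were recovered from the steps of the RPKM values, with a tolerance of 0.002 reads plus 1e-07 of the read number. For the 17452 genes above 0 in at least 2 columns, 100% of values gave whole numbers. Read totals, in units of 1000000, were 10.6, 4.17 and 5.89 for the IPs of Miwi ADH/-, Miwi -/- and Miwi +/-, and 5.49, 7.10 and 7.49 for the inputs. Their common factor was set so that gene lengths come out whole, which held within 0.05 bases for 0.475 of 9476 genes under 2500 bases, against 0.298 at the next candidate. Totals, lengths and shares of totals depend on this factor, and the reads of a gene and its ratios do not. Where the reads of a gene share a divisor in all columns, its reads come out too few and its length too short. Intervals are exact (Clopper-Pearson, 95%) and cover counting error alone, as PCR duplicates are no independent molecules. The recovery of reads and relative read totals, and the 2-fold call, were tested on simulated data. The common factor, the gene lengths and the intervals were not. Python 3.11.15, numpy 2.4.6, pandas 2.3.3 and scipy 1.17.1 were used.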

Additional observations from a re-analysis of the deposited data

How the results depend on the processing

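Each group has 1 column, so no replicate could be left out. No paired analysis was possible because the columns carry no replicate numbers. The share of RNA classes was not run, since no ID has a class in the tables used here. Of 53 alternative values, 28 stayed near the reported one (a count within 1.5 times, a median within the counting error of a typical member), 22 moved and 3 reversed.

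The reversed value was the members' median gap in IP-minus-input difference, Miwi ADH/- over Miwi +/-, under alternatives chosen after seeing the data. It was 0.14 as reported and 0.16 with a pseudocount of 0.1, against -0.22 relative to the median of all genes, -0.26 with median-of-ratios scaling and -0.20 with equal totals of listed reads. The members above 0 numbered 52 as reported, and 20, 17 and 20 under these 3 scalings.

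The median IP-minus-input difference of the members, reported as 1.59 in Miwi ADH/-, 1.74 in Miwi -/- and 1.41 in Miwi +/-, was 2.00, 3.12 and 2.18 relative to the median of all genes. It was 1.98, 3.53 and 2.20 with median-of-ratios scaling and 2.01, 3.18 and 2.18 with equal totals of listed reads. The number of genes higher in all 3 genotypes, 73 as reported, was 5 at 4-fold and 171 at 1.5-fold. It was 415 relative to the median, 373 with median-of-ratios scaling, 337 with equal totals, and 275 by counting intervals above 1. The 73 members were among the genes found at 1.5-fold, with a pseudocount of 0.1 (105 genes) and under these 3 scalings, and 71 of them by counting intervals. With at least 1 RPKM in every column 64 remained.

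Between inputs, the 2 members lower in Miwi ADH/- than in Miwi +/- became 6 with a pseudocount of 0.1 and 0 with median-of-ratios scaling. The 0 higher in Miwi -/- than in Miwi +/- became 1 with a pseudocount of 0.1. The 2 higher in Miwi -/- than in Miwi ADH/- became 1 with median-of-ratios scaling. Between IPs, alternatives chosen after seeing the data, median-of-ratios scaling gave 53 higher and 1 lower in Miwi -/- than in Miwi +/-, against 8 and 5, and 63 higher in Miwi -/- than in Miwi ADH/-, against 12. This scaling raises the Miwi -/- IP, in which listed genes hold the smallest share of reads. The counts between IPs under it have no share of all genes beside them. For the other moved values the cause was not tested. Depth limits the 11 members under 20 reads in some column.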
